A study of Drosophila melanogaster with 2 samples.

Results

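Binding of CG15696, a homeodomain protein of Drosophila melanogaster, was examined at 7 genes of the early embryo: nullo, slam, Sry-alpha, bnk, Z600, halo and zld. They were chosen by name as 6 genes transcribed in the early zygote, most of them with a part in cellularisation, together with zld, and all 7 were found among the 13945 protein-coding genes on the chromosome arms of the Ensembl annotation. The series is a single group without an untagged or mutant group: whole embryos aged 2 to 8 h, of pooled sexes, from a transgenic line that stably carries CG15696 with GFP at its C-terminus, precipitated with an antibody against GFP. There were 2 biological replicates, numbered 3 and 1. The promoter that drives the transgene is not given in the sources used here, and chromatin of all cell types of the embryo was mixed, so a site cannot be assigned to a cell type.

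Drosophila embryos begin as a syncytium in which nuclei divide rapidly without cytokinesis. When the divisions slow, membrane grows inward between the nuclei and encloses each one, a process called cellularisation, which depends on a small set of genes transcribed by the zygote itself. Many of these genes are short and have few introns. Zelda, the zinc finger protein made from zld, is a pioneer factor that opens chromatin at the earliest zygotic genes and binds the motif CAGGTAG and close relatives of it.

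The deposited data are lists of peaks. A summit is the position of the strongest signal in a peak, and each peak carries the authors' signal value, which describes peaks within a list and whose scale is not stated. Rank 1 is the highest signal of a list. The list of reproducible sites, selected by the irreproducible discovery rate (IDR), held 5354 sites with signals from 134 to 7767, and these were the 5354 strongest peaks of the pooled list, which was called on both replicates together. The pooled list and each replicate list held 30000 peaks, and the lower part of them is weakly supported. Read depth is unknown, so no counting interval is given.

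The sequences under the summits and upstream of these genes differed from gene to gene. The first 3 below are the 100 bases before the transcription start site (TSS) of genes with the Zelda core CAGGTA close to the TSS, on the strand of the gene. They were shown because the only IDR summit at the TSS of one of the 7 genes, that of halo, lay beside such a match. Coordinates are dm6, the bases are those of the RefSeq copy of this genome, and capitals mark CAGGTA or its reverse complement TACCTG, the homeodomain motif TAATTA and the TATA motif TATAAA, on either strand. The stretches are chr2L:1518149-1518248 (minus strand), chrX:7049376-7049475 (plus strand) and chr3R:31193262-31193361 (plus strand).
halo: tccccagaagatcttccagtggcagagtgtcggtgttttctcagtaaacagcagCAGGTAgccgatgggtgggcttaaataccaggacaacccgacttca
nullo: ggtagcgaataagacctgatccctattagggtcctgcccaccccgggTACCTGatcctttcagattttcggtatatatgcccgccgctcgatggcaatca
bnk: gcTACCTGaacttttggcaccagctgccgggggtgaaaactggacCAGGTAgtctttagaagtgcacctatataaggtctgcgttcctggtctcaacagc

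The next 4 are 101 bases centred on a summit, on the plus strand: the strongest site near any of the 7 genes (beside Z600), the promoter peak of Sry-alpha that fell short of the IDR list, and the strongest and the intronic IDR site of zld. Their positions are chr3L:15508329-15508429, chr3R:30039601-30039701, chrX:19765604-19765704 and chrX:19770287-19770387.
Z600 and CG7841: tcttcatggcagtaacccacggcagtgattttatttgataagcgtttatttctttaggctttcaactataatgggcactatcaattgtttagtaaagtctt
Sry-alpha promoter: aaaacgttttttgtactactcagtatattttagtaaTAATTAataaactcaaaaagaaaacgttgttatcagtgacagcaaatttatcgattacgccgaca
zld downstream: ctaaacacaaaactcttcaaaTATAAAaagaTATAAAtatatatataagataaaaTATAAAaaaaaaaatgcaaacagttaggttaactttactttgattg
zld intron: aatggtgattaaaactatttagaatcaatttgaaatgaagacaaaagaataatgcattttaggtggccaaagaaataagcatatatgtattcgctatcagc

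Of the 7 genes, 4 had an IDR summit in the gene body or within 5 kb of it (Sry-alpha, Z600, halo and zld), against 50.8% of all protein-coding genes. The share was close to the background, so it is not a result about these genes. Among the 6 genes with a body of up to 5 kb, 3 had such a summit, against 46.2% of all genes of that size. For most of these summits another gene was nearer. Only halo and zld had an IDR summit for which their own TSS was the nearest protein-coding one, against 24.3% of all genes, and only halo had one within 500 bp of its TSS, against 21.4%. This last count changed with the list used, although halo kept its site when either replicate was left out. Without replicate 3, Sry-alpha and zld were added, giving 3 genes with a site within 500 bp, zld only at rank 5349 of replicate 1. With the 2677 strongest IDR sites 0 had one. In all there were 9 IDR summits in these territories, and for 7 of them the TSS of another gene was nearer. Over all genes, too, fewer had a summit nearest to their own TSS (24.3%) than one within 5 kb (50.8%). The share of summits nearer to another gene was not counted over all genes, so it is not a result about these genes. The pooled list added weaker peaks, 36 summits in all, and at least 1 for each of the 7 genes, against 83.8% of all genes. Sry-alpha, halo and zld had a pooled summit within 500 bp of a TSS, against 51.3% of all genes.

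**Figure D1:**
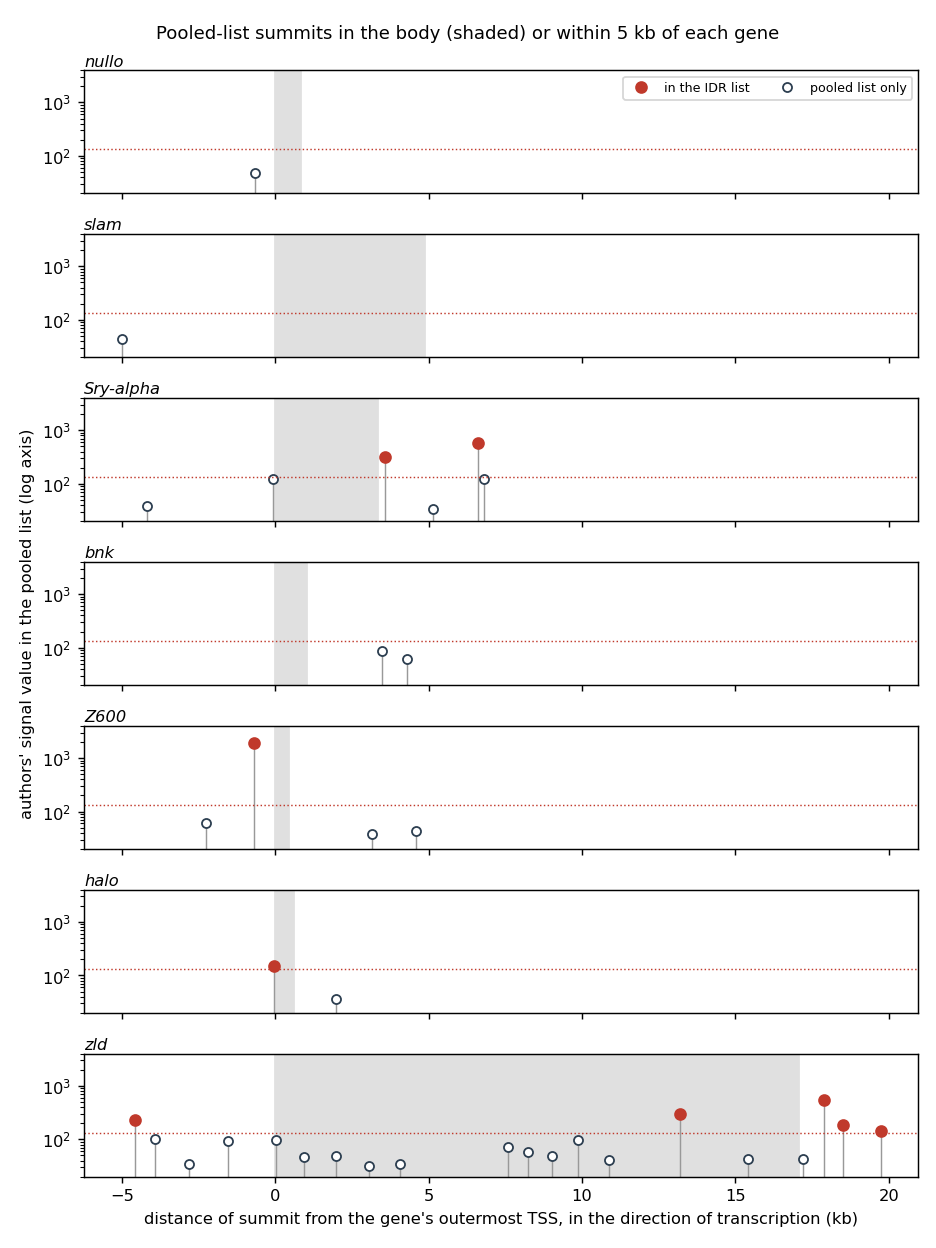
Pooled-list summits in the body (shaded) or within 5 kb of each of the 7 genes, by distance from the outermost TSS in kb, with the authors' signal on a log axis. Filled points are in the IDR list, open points only in the pooled list, and the dotted line is the lowest IDR signal, 134; the filled points number 2 for Sry-alpha, 1 for Z600, 1 for halo and 5 for zld.

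The 3 genes without an IDR site were nullo, slam and bnk. nullo encodes a membrane-associated protein that stabilises the furrow as it forms. It lies on chromosome X from 7049476 to 7050321 (plus strand), is 846 bp long with 1 exon, and sits inside CG12541, which is transcribed from the other strand. Its nearest IDR summit was 34276 bp from the TSS, farther than for 86.9% of protein-coding genes. The pooled list held 1 summit, at 7048827, 649 bp upstream of the nullo TSS in an intron of CG12541, with nullo as the nearest TSS. It was weak, with a signal of 48.7, rank 16853 of 30000 and a −log10 q of 0.507. Its partners had a signal of 23.3 (rank 23329) in replicate 3 and 18.6 (rank 28004) in replicate 1, near the end of both lists. Replicate 3 held 1 more summit in this territory, 5809 bp downstream of the TSS at rank 20548, which replicate 1 lacked.

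slam encodes a protein of the furrow tip that is needed for the membrane to grow inward. It lies on 2L from 6372388 to 6377284 (plus strand) and has annotated TSSs at 6372388 and 6373515. Its nearest IDR summit was 15247 bp away, nearer than those of nullo and bnk, and its only pooled summit lay 4998 bp upstream of the TSS, at the edge of the window. That peak (signal 43.7, rank 19433) was 492 bp from the TSS of Nepl4, a neprilysin-like gene, and had no partner within 100 bp in either replicate. Replicate 1 held no summit in this territory. Replicate 3 held 3. The summit at 6367525 (signal 25.7, rank 19786) was 357 bp from the Nepl4 TSS. It was just beyond the 100 bp limit, and its interval overlapped that of the pooled peak. The strongest had a signal of 42.4 (rank 9762) and lay in an intron whose nearest TSS was that of Nepl5.

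bnk encodes a protein that restrains contraction of the actomyosin network until the furrows have grown past the nuclei. It lies on 3R from 31193362 to 31194389 (plus strand), with 1 exon, inside mesh, which is transcribed from the other strand. Its nearest IDR summit was 22631 bp from the TSS. Both pooled summits were nearer to the TSS of CG1544. The stronger, 65 bp from that TSS, had a signal of 87.2 (rank 8394), with 52.3 (rank 7813) in replicate 3 and 29.6 (rank 14618) in replicate 1. The other had a signal of 60.7 (rank 12551). A summit 259 bp upstream of the bnk TSS appeared in replicate 3 alone, with a signal of 23.3 and rank 23365, and in neither the pooled list nor replicate 1.

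Sry-alpha encodes a protein that organises actin at the furrow. It lies on 3R from 30039719 to 30043071 (plus strand) within a dense cluster of genes. Its annotation shares the outer TSS at 30039719 with Sry-beta, a zinc finger gene, and places a second TSS at 30041217, directly before its coding sequence, which begins at 30041262. Both IDR sites in its territory belonged by distance to other genes. The site at 30043312, 241 bp past the end of Sry-alpha and 29 bp from the TSS of Sry-delta, had a signal of 317 (rank 2123). Its partners had 212 (rank 1970) in replicate 3 and 93.2 (rank 3060) in replicate 1. The site at 30046314, 153 bp from the TSS of the ribosomal protein gene RpL32, had a signal of 573 (rank 1011), with 401 (rank 891) in replicate 3 and 186 (rank 1218) in replicate 1. The TSS of CG7943 lay almost as close, and the replicate 3 summit was nearer to it, at 121 bp, than to that of RpL32. By position this site cannot be assigned to 1 of these 2 genes.

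The peak at the outer Sry TSS fell below the IDR list, and the replicates ranked it very differently. It lay at 30039651, 68 bp upstream of the shared TSS, in the gap between this TSS and that of janA on the other strand, with a pooled signal of 121 (rank 5993). The partner had a signal of 36.4 (rank 11858) in replicate 3 and 83.1 (rank 3560) in replicate 1. Whether this peak belongs to Sry-alpha, Sry-beta or janA cannot be told apart by position. Near the inner Sry-alpha TSS at 30041217 the closest pooled summit was the one at 30039651. The pooled list held 3 more summits here, near ZIPIC (signal 39.0, rank 22644), RpL32 (34.2, rank 27072) and CG7943 (123, rank 5900).

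Z600, also known as frühstart, encodes a small inhibitor of cyclin-dependent kinase activity that helps hold mitosis back during gastrulation. It lies on 3L from 15509061 to 15509513 (plus strand), 453 bp long with 1 exon, and its 3' end overlaps gdl. The strongest site near any of the 7 genes lay 682 bp upstream of it, at 15508379, with a signal of 1919.6 (rank 93 of 5354). It ranked high in both replicates: the signal was 1163 (rank 131) in replicate 3 and 758 (rank 72) in replicate 1. The TSS of CG7841, transcribed away from Z600, was nearer, at 127 bp. The other pooled summits had signals of 61.2, 42.6 and 37.9, with CG7841 or MsrA nearest, so Z600 had no pooled summit of its own.

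halo encodes a cofactor that directs lipid droplets along microtubules in the cellularising embryo. It lies on 2L from 1517533 to 1518148 (minus strand), is 616 bp long with 1 exon, and was the one gene of the 7 with an IDR site at its own TSS. The site ran from 1517986 to 1518389, with its summit 40 bp upstream of the TSS. Its signal of 151 (rank 4710 of 5354) placed it in the lower part of the IDR list, just above the lowest signal of 134. The partners had a signal of 85.6 (rank 4844) in replicate 3 and 61.7 (rank 5286) in replicate 1, with summits 40 and 65 bp from the TSS. A peak at the TSS was thus present in each of the 4 lists. Only 1.53% of protein-coding genes had an IDR summit nearer to a TSS. A weaker pooled summit (signal 36.8, rank 24519) lay near CG18132. Among 3232 genes with an IDR summit nearest to their own TSS and partners in both replicates, the gene most like halo by log2 signal in the 2 replicates was pit, on 3R, with 84.9 in replicate 3 and 60.5 in replicate 1 (distance 0.0307).

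**Figure D2:**
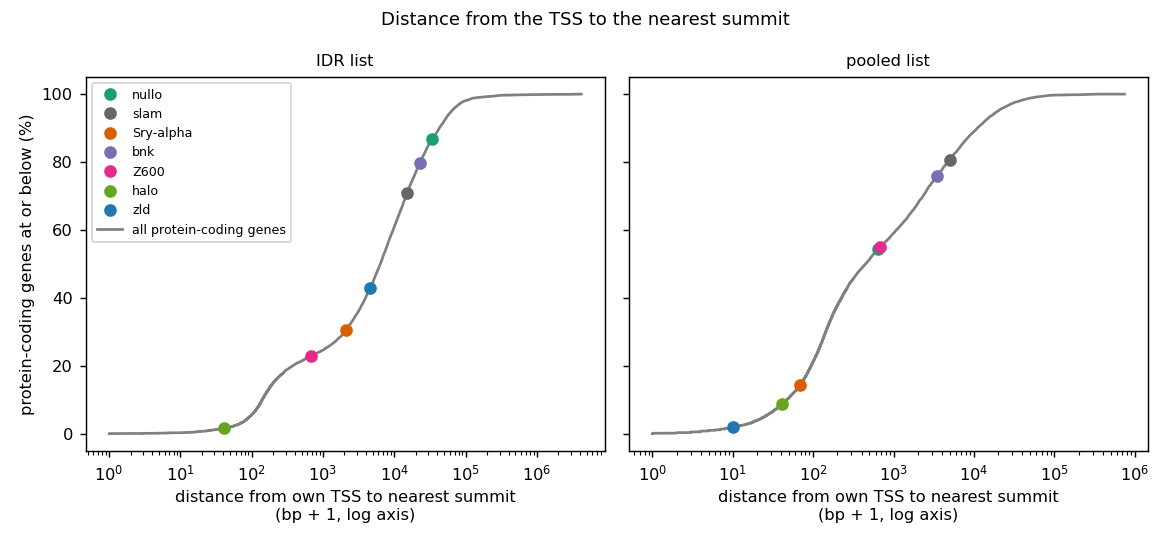
Cumulative share of protein-coding genes (%) by distance from the TSS to the nearest summit (bp + 1, log axis) in the IDR list and the pooled list, with the 7 genes marked on the curve. In the IDR list halo lies at 40 bp and nullo, bnk and slam lie at 15247 bp or more; in the pooled list zld lies at 9 bp, halo at 40 bp and Sry-alpha at 68 bp.

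zld carried the most sites of the 7, and none of its IDR sites lay at its own TSS. It lies on X from 19766465 to 19783548 (minus strand), 17084 bp long, with annotated TSSs at 19783548 and 19783143. There were 5 IDR summits in its body or within 5 kb, against a median of 1 among the 346 genes with bodies of 15 to 20 kb. Of those genes, 70.8% had at least 1 and 8.38% had 5 or more. The pooled list held 20 summits, against a median of 8.5, and 96.2% of these genes had fewer. These 20 correspond to 7.38 summits per 10 kb, against 2.24 per 10 kb over the chromosome arms.

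Of the 5 IDR sites of zld, 3 lay past its 3' end, 1 in an intron and 1 upstream. The strongest, at 19765654, lay 811 bp beyond the end of zld and 780 bp from the TSS of CG12702, between the 2 genes. Its signal was 542 (rank 1092), with 330.0 (rank 1154) in replicate 3 and 228 (rank 907) in replicate 1. Beside it were a site 176 bp from the CG12702 TSS (signal 185, rank 3800) and one in an intron of CG12702 (signal 146, rank 4898). The last of these was within the strongest 5354 peaks of replicate 1 (rank 4024) but not of replicate 3 (rank 6274). For all 3 the CG12702 TSS was nearer than that of zld.

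Inside zld, 1 IDR summit lay in an intron at 19770337, 12806 bp from the nearest zld TSS, with a signal of 303 (rank 2238). It had 169.7 (rank 2495) in replicate 3 and 131 (rank 1965) in replicate 1. The only IDR site with zld as the nearest protein-coding TSS was 4589 bp upstream, at 19788137 (signal 233, rank 3002), and it lay within the non-coding gene lncRNA:CR44885, whose own TSS was nearer. The signal there was 139 (rank 3035) in replicate 3 and 105 (rank 2625) in replicate 1. By signal in the 2 replicates at this site alone, CrebA, which encodes a secretory pathway regulator, was the gene most like zld. It had 140.3 in replicate 3 and 103 in replicate 1 (distance 0.0256). The stronger zld sites, with CG12702 as the nearest TSS, were not used for this match, which describes 1 site and not the genes.

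The zld promoter had a peak below the IDR list. The summit at 19783539, 9 bp inside the outer TSS, had a pooled signal of 98.2 (rank 7424). Replicate 3 gave it 35.9 (rank 12038) and replicate 1 gave it 61.2 (rank 5349). Upstream of the gene, summits at 1545 and 3928 bp had similar pooled signals of 92.2 and 101. Of the 20 pooled summits, 12 lay in the gene body, with 6 of them in introns and 3 in coding exons. The coding exon peaks were weak, with signals of 48.7, 35.4 and 32.1 beside a median of 53.0 over the pooled list, and outside zld only 1 summit near the 7 genes, in ZIPIC, lay in a coding exon.

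**Figure D3:**
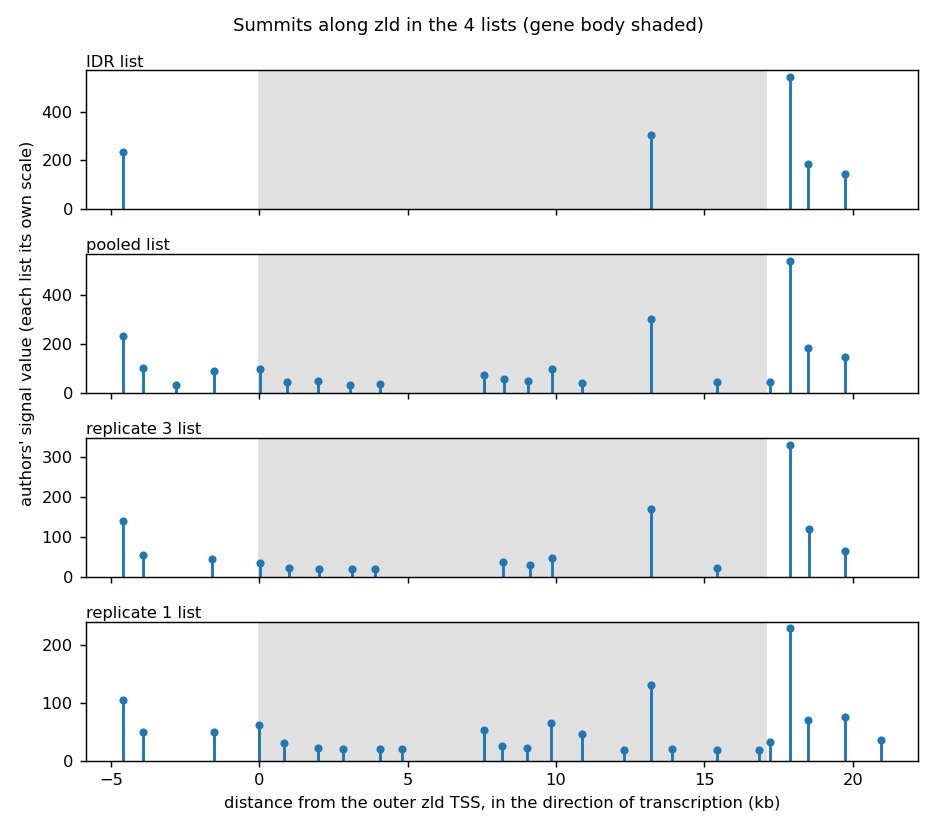
Summits along zld in the IDR, pooled, replicate 3 and replicate 1 lists, by distance from the outer TSS in kb in the direction of transcription, with the authors' signal on a linear axis of its own in each panel and the gene body shaded. The highest bar in all 4 panels is the site past the 3' end, with a signal of 542 in the IDR list, 330.0 in replicate 3 and 228 in replicate 1.

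All 9 IDR summits near the 7 genes had a partner within 100 bp in both replicate lists, as did 5049 of all 5354 IDR sites. The IDR list is itself a selection for agreement between the replicates, so this is not a result about these genes. The signal in replicate 3 over that in replicate 1 was 0.69 on the log2 scale as the median of the 5049 matched IDR sites, with quartiles of 0.23 and 1.09. The site near Sry-delta (1.19) and that near RpL32 and CG7943 (1.11) lay above the upper quartile. At the latter, the summits of the 2 replicates lay on either side of the IDR summit and were not within 100 bp of each other. The 5 zld sites lay between -0.20 and 0.76, halo at 0.47 and the Z600 site at 0.62. The 2 pooled-list peaks within 500 bp of a TSS of the 7 genes that missed the IDR list were lower in replicate 3. Their values were -1.19 for Sry-alpha and -0.77 for zld. Both were within the strongest 5354 peaks of replicate 1, zld barely so at rank 5349, and neither was among those of replicate 3. Weak peaks this near a TSS in 1 replicate alone went both ways. That of bnk, at 259 bp, was in replicate 3 (signal 23.3), and another of zld, at 420 bp, in replicate 1 (signal 31.0). Promoter peaks of neighbouring genes that missed the IDR list went both ways, at -0.57 for CG7943 and 0.82 for CG1544. Those of Nepl4 and MsrA lacked a partner in at least 1 replicate. Of the 27 pooled summits outside the IDR list, 13 had a partner within 100 bp in both replicates, 5 only in replicate 3, 7 only in replicate 1 and 2 in neither. These shares were not counted over all pooled peaks outside the IDR list, so they are not a result about these genes. Scales of the lists were set separately, so these ratios describe 2 libraries and were not tested.

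**Figure D4:**
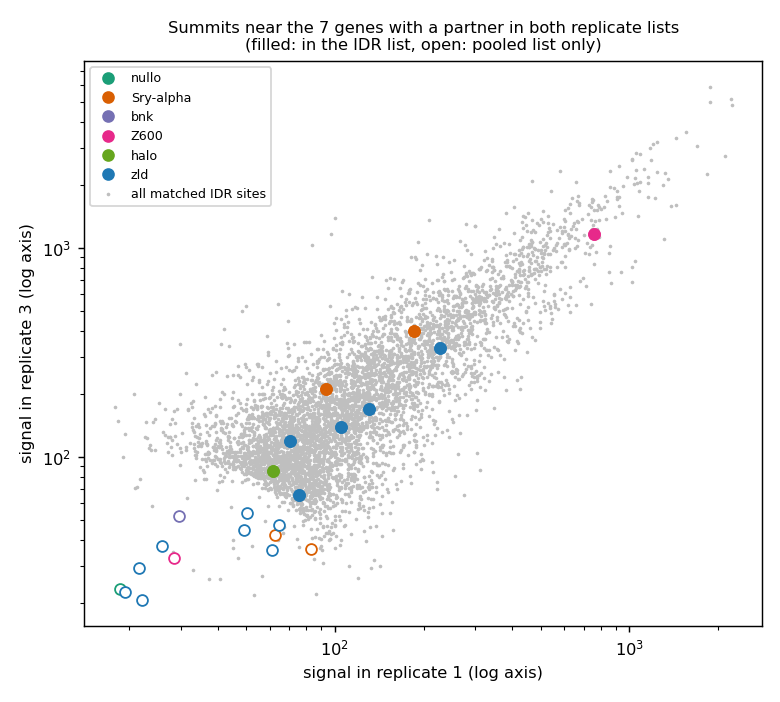
Signal in replicate 3 against signal in replicate 1 (log axes) for summits near the 7 genes with a partner in both lists, coloured by gene, over all 5049 matched IDR sites in grey. The Z600 site is the highest of the coloured points (1163 and 758). The open points, which are pooled-list peaks outside the IDR list, lie toward the low end of both axes. They overlap the filled points on the replicate 1 axis, where the open Sry-alpha point (83.1) lies above the filled halo point (61.7).

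Most of these genes shared a sequence upstream. The Zelda core CAGGTA, searched on both strands in the 250 bases before each annotated TSS, was found for 6 of the 7 genes (nullo, slam, Sry-alpha, bnk, Z600 and halo), against 7.34% of protein-coding genes. It was not found upstream of zld. The longer CAGGTAG, which contains it, was found for slam, Sry-alpha, bnk, Z600 and halo, against 2.07%. A gene with several TSSs has more sequence searched. In slam and Sry-alpha the matches belonged to the inner TSS. There were 12 matches in all: 3 each for slam and bnk, 2 each for Z600 and halo, and 1 each for Sry-alpha and nullo.

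Of these 12 matches, 1 had a pooled summit within 50 bp. It was the match 46 bp upstream of the halo TSS, 1 bp from the IDR and replicate 3 summits and 19 bp from the replicate 1 summit. The matches of nullo, bnk, slam and Sry-alpha were at least 596 bp from any pooled summit, although those of bnk were 109 to 204 bp from the weak summit of replicate 3, and those of Z600 were 482 and 555 bp from the site shared with CG7841. Over all genes, 24.5% of the 1024 with CAGGTA upstream had an IDR summit within 500 bp of a TSS, against 21.2% of the 12921 without it. Within 50 bp of the summit, CAGGTA was found at 1 of the 9 sites near the 7 genes, the halo site, and at 1.87% of all IDR sites.

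Other motifs were counted at the same 9 sites, too small a number to read a difference from the shares over all IDR sites. None held TAATTA, found at 10.6% of IDR sites, or its relative TAATGA (7.86%). TATAAA was at 1, the strongest zld site, with 3 copies, against 24.3% of IDR sites, and the motif GATAA of serpent-type zinc finger factors was at 3, against 25.5%. The motif GAGAG, bound by the product of Trl, was at 1 against 8.61%. The core of the DREF motif, ATCGAT, was at none, against 4%, and the same held for the E-box CATATG, against 5.1%. The promoter peak of Sry-alpha held 1 TAATTA (in capitals in its sequence above), 2 copies of GATAA and 1 copy of ATCGAT. A match describes the letters in the window only. The GC content of the 101-base windows ran from 17.8% at the strongest zld site to 58.4% at the site in CG12702, with a median of 39.6%, against a median of 31.7% over all IDR sites. The halo window had 53.5% and the Sry-delta window also 53.5%.

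The lists of related genes differed in how many carried IDR sites, and so did their lengths. Of 23 other genes of the cellularisation machinery, 20 had an IDR summit in the body or within 5 kb, against 50.8% of all genes. The median body of this list was 9246 bp, against 2166 bp over all genes and 1028 bp for the 7, and 62.0% of all genes with bodies over 5 and up to 15 kb had such a summit. The strongest sites were those near baz, a polarity scaffold gene (rank 169), ena, an actin elongation factor gene (rank 316, nearest to CG15118), Abi (rank 383, nearest to 140up) and pnut, a septin gene (rank 505). The 3 without a site were dunk, scra and zip. An IDR summit within 500 bp of a TSS was found for 10 of these 23 and for 21.4% of all genes, and the 1 of 7 given above is near that share.

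Of 16 other early zygotic genes, 7 had an IDR summit within 5 kb, near the 50.8% of all genes, and 1 had one within 500 bp of its TSS, against 21.4% of all genes. This was Sxl, the switch gene of sex determination, whose site (rank 1108) lay 407 bp from the TSS. The next were zen (rank 2976), sisA (rank 3081, nearest to Gapvd1) and Elba2 (rank 4250, nearest to insv). CAGGTA was found upstream of 14 of the 16. In the cellularisation machinery list it was upstream of kuk and dunk, 2 of 23, both of which are themselves transcribed in the early zygote.

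Of 12 genes that control the cell cycle at the mid-blastula transition, 10 had an IDR summit within 5 kb, against 50.8% of all genes. Only 3 of the 12 had an IDR summit nearest to their own TSS, near the 24.3% of all genes. An IDR summit within 500 bp of a TSS was found for 4, against 21.4%. The median body of this list was 3702 bp, against 2166 bp over all genes, and the difference from the background was not tested. CycB, which encodes cyclin B, had the strongest (rank 10, 3337 bp from its TSS), followed by trbl, which promotes degradation of the Cdk1 activator String (rank 265), mei-41, a checkpoint kinase gene (rank 375, nearest to TH1), and fzr (rank 1119, nearest to CG3009). Of 12 genes of zygotic genome activation and maternal RNA clearance, 8 had an IDR summit within 5 kb, against the same 50.8%. Their median body was 5218 bp, and 62.0% of all genes with bodies over 5 and up to 15 kb had such a summit. Trl, which encodes GAGA factor, had 6 including rank 31 in an intron, followed by Dsp1 (rank 390, nearest to CG9921), brat (rank 491) and pum (rank 787). Of 6 lipid droplet transport genes related in function to halo, with a median body of 6053 bp, 3 had one, near the 50.8% of all genes. They were klar (rank 1042, nearest to CG34268), BicD (rank 1383, nearest to Sgt) and Lsd-2 (rank 2513). CAGGTA was upstream of stg and fzr in the cell cycle list and of none in the other 2 lists. CG15696 itself had 1 IDR summit within 5 kb (rank 2996).

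**Figure D5:**
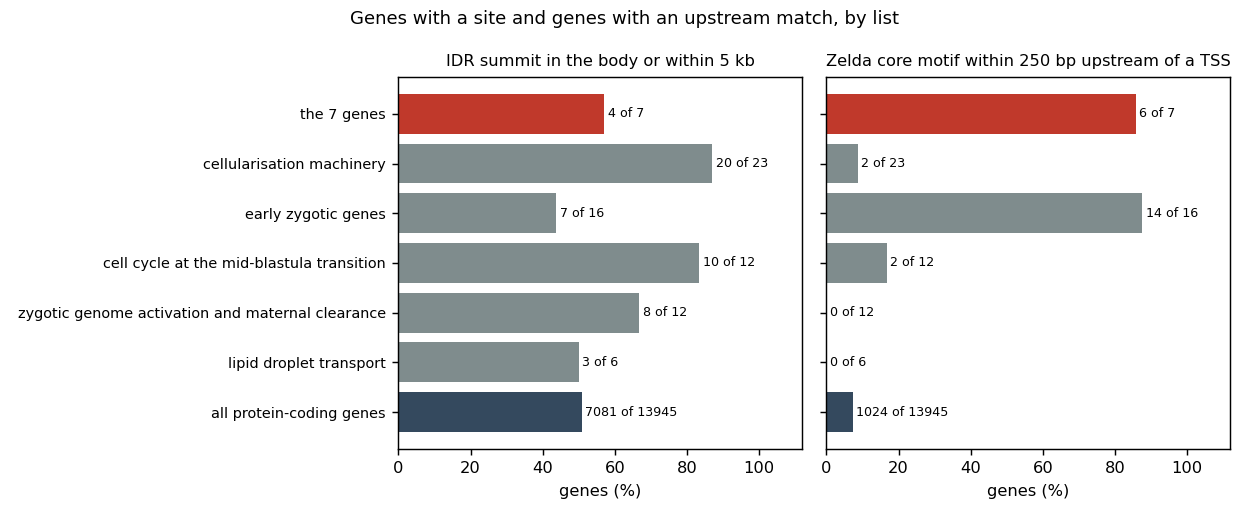
Percent of genes with an IDR summit in the body or within 5 kb (left) and with the Zelda core motif within 250 bp upstream of a TSS (right), for the 7 genes, 5 lists of related genes and all 13945 protein-coding genes; the counts stand beside the bars. The 7 genes reach 57.1% on the left, beside 50.8% of all genes, and 85.7% on the right, beside 7.34%.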

How the data were processed

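Anti-GFP ChIP-seq peak lists from 2 replicates of 1 group were used. Per the notes deposited with the files, the authors called peaks on each replicate and on both together, each against 1 control alignment, and derived the IDR list from these. No source used here names the caller or states an IDR cutoff or the number of reads. The files are narrowPeak on dm6, per the labels: column 7 holds the deposited signal value of each peak, and column 9 a −log10 q value, per that format.

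Coordinates were made 1-based, and summits were placed against Ensembl release 115 and the RefSeq Release 6 genome, which fits dm6: every peak lay within its arm. A summit was assigned to a gene when in its body or within 5 kb. Nearest TSSs were taken over protein-coding transcripts, keeping ties. Summits within 100 bp in different lists were called partners. The assignment was tested on simulated summits for 300 genes against a plain loop, with no disagreement. Python 3.11.15, pandas 2.3.3 and NumPy 2.4.6 were used.

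The 7 genes, the 5 lists and the motifs were chosen with earlier results of these data known. Named genes are the 7, the nearest genes to their summits, up to 4 per list with the strongest sites, CG15696, and the genes most like halo and zld; any further gene was named with its values already in view. The symbol nos was matched to nanos, although RefSeq lists it as an older name of Nos too. With 1 group there was no comparison between groups and no test, and shares of all genes stand as background.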

Additional observations from a re-analysis of the deposited data

How the results depend on the processing

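Sites were recounted under other lists, windows and replicates. Of 76 recounts, 58 stayed within 1.5 times the reported value and 18 did not. With the 2677 strongest IDR sites, halo lost its site, no gene of the 7 had a site nearest to its own TSS (0) or within 500 bp of it (0), 5 sites were left in the territories, 1 early zygotic gene had a site, and 33.5% of all genes had one. With all pooled peaks, all 7 had a summit within 5 kb, 4 had one nearest to their own TSS and 3 one within 500 bp, with 36 summits in all, 11 early zygotic genes and 83.8% of all genes. The stronger 15000 pooled peaks left 20 pooled summits, and a 2 kb window left 23 of them and 4 early zygotic genes. With TSSs of non-coding genes included, 1 gene kept an own site. With peak intervals in place of summits, or a window of 1000 bp, 2 genes had a site within 500 bp or 1000 bp of their TSS. Leaving out a replicate gave 1 to 3 genes with a site within 500 bp, the 3 being Sry-alpha, halo and zld without replicate 3. It gave 2 to 3 with a site nearest to their own TSS, 4 with one within 5 kb, 8 to 13 sites, 37 to 43 full-list summits, 5 to 8 early zygotic genes, and 49.3 to 51.7% of all genes. The same 4 of the 7 had a site within 5 kb without either replicate. The cause of these differences was not tested. No paired analysis was possible because there is 1 group. Without read depth, a missing peak cannot be told apart from one too weak to be called.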
